A study of Rattus norvegicus with 6 samples.

Results

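The 10 genes described here mark macrophages, the resident phagocytes of the islet: C1qa, C1qb, C1qc, Csf1r, Cd68, Mrc1, Cd163, Aif1, Tyrobp and Fcer1g. They were picked by symbol out of the 17321 genes counted in islets of fetal Sprague Dawley rats at gestational day 22, and all 10 were present and passed the filter on low counts, which left 12276 genes. For the libraries labelled high glucose, the fetuses lay in the left uterine horn, into which glucose was infused over the last 48 h before collection, starting on gestational day 20, at a rate of 4 mg/min. For the libraries labelled control, they lay in the right horn, which stayed normoglycemic. Each group had 3 libraries, which form 3 pairs by dam as the stems of their titles give them. In both groups a library pooled 2 fetal pancreata, whose islets were freed with collagenase, picked by hand and left to recover for 24 h in RPMI at 5 mM glucose. Horn side and treatment cannot be told apart in this design. The horn letter in the sample title and the one in the name of the counted alignment contradict each other in 6 of 6 libraries. Every direction below rests on the treatment label, and would change sign if the alignment names were the right ones.

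Macrophages settle in the pancreas before birth and stay beside endocrine cells and vessels. Their survival depends on CSF1R, the receptor for the cytokines CSF1 and IL-34. C1qa, C1qb and C1qc encode the chains of C1q, the recognition unit of classical complement, which in most tissues is made mainly by macrophages. Tyrobp (DAP12) and Fcer1g (the Fc receptor gamma chain) are small membrane adaptors whose ITAM motifs pass signals from activating receptors to the kinase SYK. Cd68 is a protein of lysosomal membranes, Aif1 (IBA1) binds actin and calcium, and Mrc1 (CD206) and Cd163 are scavenger receptors for mannose-bearing glycoproteins and for haemoglobin bound to haptoglobin.

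The libraries held 18077841 to 30993532 counted read pairs, and each of the 10 genes had between 189 and 6731 counts in every library. Values are CPM, the share of a library's counts scaled by TMM library factors, or, where genes are set against each other, TPM, the share of a library after division by the length of the counted exons. No exon of these genes overlapped an exon of another counted gene. Macrophage identity was present beyond the 10 genes. Of 22 further macrophage markers 20 passed the filter, among them Mpeg1 (perforin-2) at 34.8 to 216 CPM and Lyz2 (lysozyme) at 35.5 to 199 CPM over the 6 libraries. Spi1, which encodes PU.1, the transcription factor of the myeloid lineage, had 15.9 to 49.8 CPM. Islet beta cell genes were far more abundant, with a summed level of 4972 to 18602 CPM in the high glucose libraries and 11228 to 22834 CPM in the control libraries.

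Of the 10 genes, 6 were lower in the high glucose library in all 3 dam pairs: C1qa, C1qb, C1qc, Csf1r, Tyrobp and Aif1. Over all genes tested, 11.3% were lower in all 3 pairs. None of the 10 passed the test over the whole table (edgeR quasi-likelihood test with dam as a block, Benjamini-Hochberg adjusted p below 0.05), in which 0.0163% of genes were called, both of them lower. At an unadjusted edgeR p below 0.05, 6 of the 10 were lower and 0 higher, against 3.15% and 1.67% of all genes tested (4.82% in both directions). The DESeq2 test also called 0 of the 10, against 0.863% of all genes (0.692% lower). The median log2 difference of the 10 was -0.62 (high glucose minus control), and the median of all genes tested was 0.00. In bulk islet RNA, fewer macrophages and less of these transcripts per macrophage cannot be told apart.

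**Figure D1:**
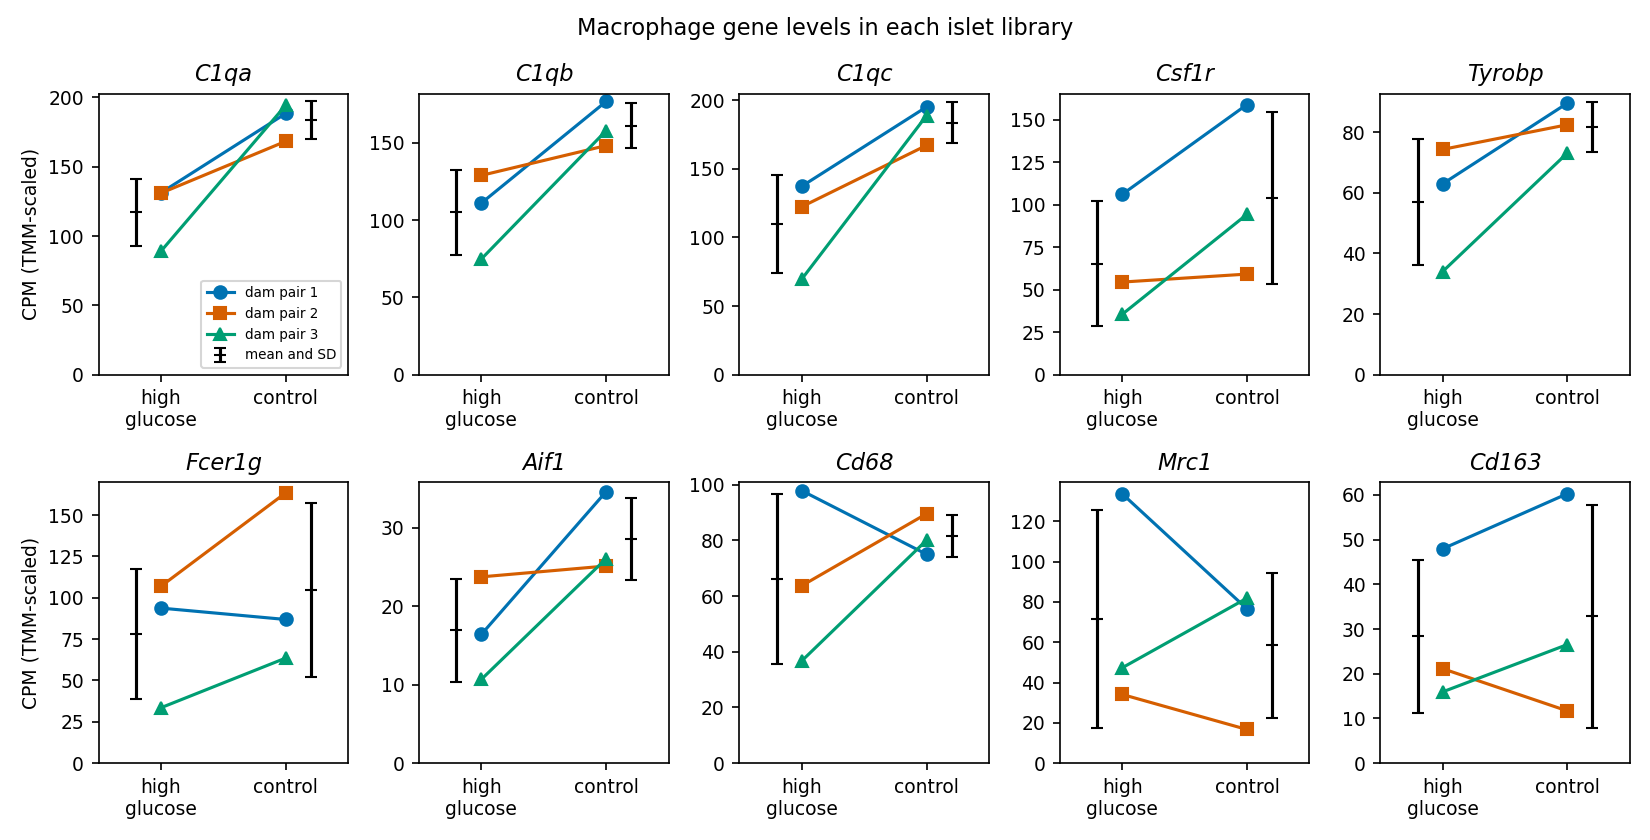
TMM-scaled CPM (vertical axes, starting at 0) of the 10 genes in each library, high glucose on the left and control on the right of each panel. Lines join the libraries of a dam, and black bars give the mean and SD of 3 libraries. The lines of the C1q chains, Csf1r, Tyrobp and Aif1 all lead to a higher control value. Those of Fcer1g, Cd68, Mrc1 and Cd163 rise in some dams and fall in others.

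Per transcript length, the C1q chains and the adaptors were the most abundant of the 10. Mean TPM over the 6 libraries was 239 ± 72.4 for C1qa, 227 ± 83.2 for C1qc, 221 ± 84.1 for Fcer1g, 209 ± 64.3 for Tyrobp and 196 ± 62.5 for C1qb (SD, n = 6). These 5 means lie within the spread of each other, and their order changed between libraries. Cd68, at 97.7 ± 32.1 TPM, was the 6th of the 10 in every library. Aif1 (54.99 ± 23.4 TPM), Csf1r (38.0 ± 24.7 TPM) and Mrc1 (21.0 ± 14.95 TPM) followed; neighbours in this order differed by less than the larger of their SDs, and their order changed between libraries. Cd163, at 12.3 ± 9.15 TPM, was the lowest of the 10 in every library. C1qa lay above 94.6% of the tested genes by mean TPM and Cd163 above 38.9%.

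The C1q genes lie side by side on the minus strand of chromosome 5 in rn6: C1qb at 155246444 to 155251993, C1qc at 155255025 to 155258351 and C1qa at 155261254 to 155264101, with 3031 and 2902 bases between neighbours. C1qa had 131.3, 131.0 and 89.2 CPM in the high glucose libraries of pairs 1 to 3, against 188.5, 168.4 and 194.5 CPM in the control libraries. All 3 high glucose values lay below all 3 control values. The fitted log2 difference was -0.67 (SE 0.202, edgeR adjusted p = 0.597). C1qb had 111, 129 and 74.9 CPM in high glucose and 177, 148 and 158 CPM in control, a log2 difference of -0.65 (SE 0.206, edgeR adjusted p = 0.68). C1qc had 137, 122 and 69.6 CPM in high glucose and 195, 167 and 189 CPM in control, a log2 difference of -0.80 (SE 0.227, edgeR adjusted p = 0.553), the smallest p of the 10. On the CPM scale the groups did not overlap for the C1q chains and Aif1, 4 of the 10, against 2.1% of all genes tested that were lower and 1.21% that were higher without overlap. On the TPM scale this held for Aif1 alone, against 1.12% of all genes. That scale divides counts by exon length before the share is taken, and carries no TMM factor. Which of these steps brought the overlap of the C1q chains was not tested.

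The C1q chains kept similar proportions to each other across the 6 libraries. The ratio of C1qb to C1qa, in TPM, was 0.788, 0.916 and 0.783 in the high glucose libraries and 0.874, 0.82 and 0.757 in the control libraries. The ratio of C1qc to C1qa was 1.02, 0.909 and 0.761 in high glucose and 1.01, 0.966 and 0.945 in control. Only the high glucose library of pair 3 stood below 0.9 for C1qc over C1qa, and in that library all 3 chains were also at their lowest CPM. Across the 6 libraries the log2 CPM of the chains correlated at r between 0.965 and 0.985 (Pearson, n = 6), a description of libraries that share dams in pairs. On the CPM scale the chains differed little between dams in control, with coefficients of variation of 7.43% for C1qa, 9.04% for C1qb and 8.01% for C1qc. In the high glucose libraries these were 20.7%, 26.2% and 32.4%. These coefficients are for the CPM scale only. In TPM the SD of each chain was larger in control, but so was its mean. The SDs alone therefore do not show whether the contrast holds in TPM. Mean TPM in control was 287 ± 68.4 for C1qa, 235.5 ± 66.6 for C1qb and 280 ± 73.4 for C1qc (SD). In high glucose it was 191 ± 38.2, 157 ± 27.4 and 174 ± 58.3.

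The promoters are shown for C1qa and C1qb, which were lower in every pair, and for Cd68 and Mrc1, which were not. Many macrophage promoters in mouse and human hold purine-rich sites of PU.1, built on the ETS core GGAA. Each line is the 250 bases before the RefSeq gene start in the GRCr8 assembly, 5′ to 3′ on the gene's strand, with every GGAA or its reverse complement TTCC in capitals. The windows are chr5:154419934-154420183 (- strand), chr5:154407828-154408077 (- strand), chr10:54882442-54882691 (- strand) and chr17:82157475-82157724 (+ strand).
C1qa: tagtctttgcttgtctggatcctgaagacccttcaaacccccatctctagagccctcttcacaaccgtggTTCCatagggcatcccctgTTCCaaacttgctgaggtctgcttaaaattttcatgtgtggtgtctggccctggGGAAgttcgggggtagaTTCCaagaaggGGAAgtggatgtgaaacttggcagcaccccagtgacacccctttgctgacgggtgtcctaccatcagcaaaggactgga
C1qb: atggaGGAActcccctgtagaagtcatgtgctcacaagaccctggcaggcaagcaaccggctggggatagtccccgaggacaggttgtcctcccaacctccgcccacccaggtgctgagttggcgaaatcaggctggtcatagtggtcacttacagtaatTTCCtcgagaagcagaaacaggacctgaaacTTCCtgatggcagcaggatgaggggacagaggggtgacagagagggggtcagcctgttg
Cd68: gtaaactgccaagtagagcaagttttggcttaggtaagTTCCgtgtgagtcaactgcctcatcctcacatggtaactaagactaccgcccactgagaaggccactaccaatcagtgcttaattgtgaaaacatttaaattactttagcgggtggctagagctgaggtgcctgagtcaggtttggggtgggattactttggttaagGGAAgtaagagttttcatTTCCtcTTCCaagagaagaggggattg
Mrc1: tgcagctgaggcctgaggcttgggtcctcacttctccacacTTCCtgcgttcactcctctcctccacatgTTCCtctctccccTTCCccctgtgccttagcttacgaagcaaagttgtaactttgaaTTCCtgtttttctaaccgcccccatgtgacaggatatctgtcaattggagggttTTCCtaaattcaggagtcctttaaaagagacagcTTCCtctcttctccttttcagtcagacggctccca
The promoter table held 6 of the 10 genes (C1qa, C1qb, Cd163, Cd68, Csf1r and Mrc1). The extended motif GAGGAAGT, searched on both strands, was in 0 of these 6 windows and in 2.04% of the 33469 windows of the table. Searches for its first 6 bases, GAGGAA, and for the core GGAA were added after the data were seen. GAGGAA matches were found in the windows of C1qb, Cd68, Csf1r and Mrc1, 4 of 6, and in 23.3% of all windows. The core GGAA, which lies inside both, was in 6 of 6 windows and in 93.2% of all windows, with 5 matches for C1qa, 3 for C1qb, 4 for Cd68, 6 for Mrc1 and a median of 3 over all windows.

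Csf1r, the receptor on which macrophages depend (chromosome 18, 56431891 to 56458300, plus strand), had 106, 54.4 and 35.5 CPM in high glucose, against 159, 59.1 and 94.3 CPM in control. The value was lower in each high glucose library than in its own control, but the groups overlapped because the dams differed widely. The log2 differences were -0.58, -0.12 and -1.41 in pairs 1 to 3, and the fitted value was -0.70 (SE 0.249, edgeR adjusted p = 0.845). The ligands did not share this order. Csf1, the main CSF1R ligand, had 214, 161 and 122 CPM in high glucose and 234, 151 and 93.6 CPM in control, a log2 difference of 0.12 (edgeR adjusted p = 0.9996). Il34, the other ligand, had 1.38, 4.05 and 4.02 CPM in high glucose and 2.38, 3.77 and 2.97 CPM in control. Of the 8 tested genes of the CSF1 receptor axis, Csf1r among them, 0 were called. Their median log2 difference was -0.18.

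Both adaptors were lowest in the high glucose library of pair 3. Tyrobp (chromosome 1, 88875449 to 88879299, plus strand) had 62.9, 74.3 and 34.0 CPM in high glucose and 89.6, 82.5 and 73.1 CPM in control, a log2 difference of -0.59 (SE 0.215, edgeR adjusted p = 0.85). The groups overlapped only where the high glucose library of pair 2 exceeded the control library of pair 3. Fcer1g (chromosome 13, 89601894 to 89606326, minus strand), which mast cells, natural killer cells and platelets also use, had 93.8, 107 and 33.5 CPM in high glucose and 86.9, 164 and 63.6 CPM in control. It was slightly higher in the high glucose library of pair 1 and lower in the other two, with a fitted log2 difference of -0.47 (SE 0.22, edgeR adjusted p = 0.9996). The ratio of Fcer1g to Tyrobp ranged from 0.721 to 1.65 in TPM. Of 17 tested genes listed for ITAM signalling (receptors, kinases, phosphatases and other signalling proteins), 11 were lower in all 3 pairs and 16 had a negative fit. Over all genes tested, 11.3% were lower in all 3 pairs. Trem2, Fcgr1a, Fcgr3a and Siglec1 are also in the list of other macrophage markers, so the lists are not separate. Their median log2 difference was -0.53, and 0 were called. Syk, the kinase that binds phosphorylated ITAMs, had 28.3, 18.2 and 14.2 CPM in high glucose against 41.7, 21.7 and 29.1 CPM in control. Lyn, the Src-family kinase that phosphorylates them and the most abundant gene of this list, had a log2 difference of -0.52 (SE 0.19, edgeR adjusted p = 0.845). Fcgr3a, an Fc receptor that signals through Fcer1g and the gene with the smallest p of this list, had a log2 difference of -0.996 (SE 0.346, edgeR adjusted p = 0.797).

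Aif1 (chromosome 20, 5161350 to 5163249, minus strand) had 16.4, 23.7 and 10.7 CPM in high glucose and 34.6, 25.1 and 26.1 CPM in control. The groups did not overlap, and the log2 difference of -0.82 (SE 0.266, edgeR adjusted p = 0.719) was the most negative of the 10. Cd68 (chromosome 10, 56268726 to 56270605, minus strand) had 97.8, 63.7 and 36.7 CPM in high glucose and 75.0, 89.6 and 80.1 CPM in control. It was higher in the high glucose library of pair 1 and lower in pairs 2 and 3, and the fitted value was -0.41 (SE 0.28, edgeR adjusted p = 0.9996). Lysosomal genes as a list, which all cells use, differed less. Of 20 tested, 3 were lower in all 3 pairs, against 11.3% of all genes tested, and 0 were called. The list median was -0.15, with 0.06, 0.01 and -0.62 in pairs 1 to 3. Ctsb (cathepsin B), the most abundant of them, had a log2 difference of -0.13 (edgeR adjusted p = 0.9996). Atp6v0d2, a proton pump subunit with the smallest p of this list, had under 2 CPM in all libraries.

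The scavenger receptors varied more between dams than the C1q chains did and had no one sign across the pairs. Mrc1 (chromosome 17, 81352700 to 81433743, plus strand) had 134, 34.1 and 47.3 CPM in high glucose and 76.5, 16.7 and 81.9 CPM in control. It was higher in the high glucose library in pairs 1 and 2 and lower in pair 3, with log2 differences of 0.80, 1.03 and -0.79 and a fit of 0.35 (SE 0.38, edgeR adjusted p = 0.9996). Without pair 3 the fit was 0.92 (edgeR adjusted p = 0.0929). Without pair 1 it was 0.10 and without pair 2 it was 0.01 (edgeR adjusted p = 0.9996 and 0.9992). Cd163 (chromosome 4, 156752093 to 156785467, plus strand) had 47.9, 21.1 and 15.9 CPM in high glucose and 60.3, 11.7 and 26.5 CPM in control. Its fitted log2 difference was -0.09 (SE 0.305, edgeR adjusted p = 0.9996), 0.04 without pair 1 and 0.25 without pair 3, so its sign depended on single pairs. Among control libraries the highest value was 4.9 times the lowest for Mrc1 and 5.16 times for Cd163, against 1.15 times for C1qa. Both receptors were lowest, among the controls, in pair 2.

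**Figure D2:**
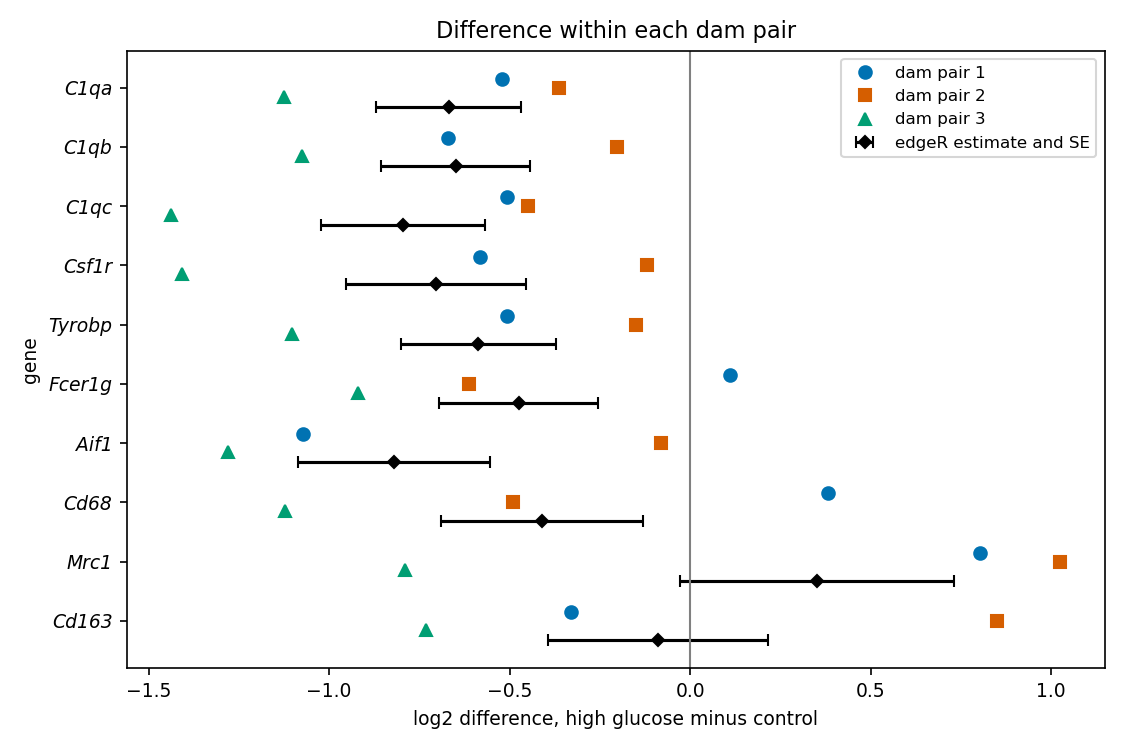
Log2 difference of each gene, high glucose minus control (horizontal axis), in each dam pair (coloured symbols, log2 CPM, prior count 2) and as fitted by edgeR (black diamonds with SE). All 10 genes were negative in pair 3, and Mrc1 stood at 0.80 and 1.03 in pairs 1 and 2.

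Set against C1qa, the scavenger receptors took a larger place in the high glucose libraries. The TPM ratio of Mrc1 to C1qa was 0.195, 0.0498 and 0.102 in high glucose, against 0.0777, 0.019 and 0.0806 in control. It was higher in the high glucose library of each pair, by log2 differences of 1.33, 1.39 and 0.33. The ratio of Cd163 to C1qa was 0.0867, 0.0383 and 0.0424 in high glucose and 0.0758, 0.0165 and 0.0324 in control, with log2 differences of 0.19, 1.22 and 0.39. The ratio of Tyrobp to C1qa also had a positive sign in all 3 pairs, at 0.01, 0.21 and 0.02. The ratio of Csf1r to C1qa did not keep a sign, at -0.06, 0.24 and -0.29. These ratios were chosen after the values were seen. Of 10 ratios tested with a two-sided exact sign-flip permutation test over the 3 pairs, those of Mrc1, Cd163 and Tyrobp to C1qa reached p = 0.25, the smallest that 3 pairs allow (Benjamini-Hochberg adjusted p = 0.75). Any ratio of one sign in all 3 pairs gives this p, so the test adds nothing to the signs. C1qa, the denominator, was itself lower in high glucose in each pair. In pair 3 Mrc1 was lower too, with log2 CPM differences of -0.79 for Mrc1 and -1.12 for C1qa.

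**Figure D3:**
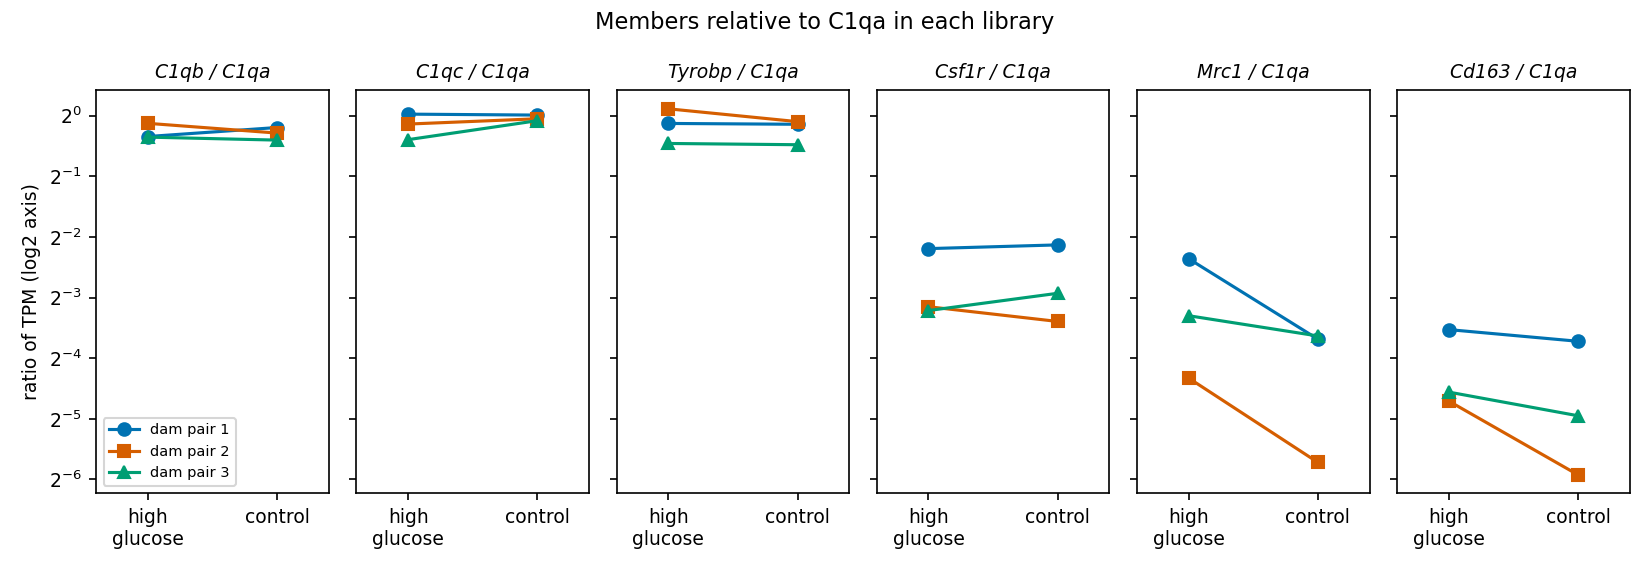
Ratio of the TPM of 6 genes to that of C1qa in each library (vertical log2 axis), high glucose left and control right, with lines joining the libraries of a dam. The C1qb, C1qc and Tyrobp ratios stayed between 0.718 and 1.08, whereas the Mrc1 ratio ran from 0.019 to 0.195.

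Of the mannose receptor family, Mrc2 (the collagen receptor Endo180) and Pla2r1 (a phospholipase A2 receptor) had log2 differences of 0.05 and 0.45 (edgeR adjusted p = 0.9996 for both), and the list of 3 tested genes, Mrc1 included, had a median of 0.35 with 0 called. Of 13 tested genes of haem and iron handling, 4 were lower and 1 higher in all 3 pairs (11.3% and 11.7% of all genes tested). In this list 0 were called, with 10 negative fits and a median of -0.27. Slc40a1 (ferroportin, the iron exporter) had 19.3, 9.28 and 12.1 CPM in high glucose and 46.4, 12.2 and 24.8 CPM in control, a log2 difference of -0.91 (SE 0.24, edgeR adjusted p = 0.471). The ferritin gene Fth1, the most abundant of this list, had a log2 difference of -0.24 (edgeR adjusted p = 0.9996). Hmox1, which breaks down haem, had 605, 588 and 338 CPM in high glucose and 989, 564 and 376 CPM in control. In the complement pathway beyond C1q, 21 genes were tested, of which 4 were lower and 2 higher in all 3 pairs, 15 had a negative fit and 0 were called. The median was -0.17. C1r, the protease that C1q activates, had 576, 613 and 399 CPM in high glucose and 613, 606 and 485 CPM in control. C3, the central component, had 254, 134 and 738 CPM in high glucose and 202, 84.6 and 272 CPM in control, a log2 difference of 0.81 (SE 0.235, edgeR adjusted p = 0.571), opposite in sign to the C1q chains. Cfp (properdin, of the alternative pathway), the gene of this list with the smallest p, had a log2 difference of -1.38 (SE 0.323, edgeR adjusted p = 0.336).

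Other macrophage markers had the same sign as the C1q chains in most cases. Of 20 tested, 10 were lower and 0 higher in all 3 pairs (11.3% and 11.7% of all genes tested), 18 had a negative fit, and 0 were called. The median was -0.56, with -0.34, -0.11 and -1.21 in pairs 1 to 3. Cybb, the catalytic subunit of the phagocyte NADPH oxidase, had 17.9, 3.03 and 5.11 CPM in high glucose and 44.1, 5.32 and 14.9 CPM in control, a log2 difference of -1.24 (SE 0.249, edgeR adjusted p = 0.231). Mpeg1, the most abundant of this list, had 172, 68.9 and 34.8 CPM in high glucose and 216, 83.1 and 125.1 CPM in control (log2 difference -0.80, SE 0.336, edgeR adjusted p = 0.9996). Clec10a, a galactose-type lectin often found with Mrc1, was an exception, with 25.6, 21.5 and 21.6 CPM in high glucose and 11.7, 11.5 and 23.1 CPM in control (log2 difference 0.64, edgeR adjusted p = 0.99). The value of Clec10a was chosen for mention after it was seen.

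The list of long-lived resident macrophage markers was closer to no difference, at a median of -0.10 over 9 tested genes. In all 3 pairs 3 were lower and 1 higher (11.3% and 11.7% of all genes tested), and 0 were called. Their fits ran from -0.97 to 0.87, with 6 negative. Of the 13 listed, Timd4, Stab1, Cbr2 and Cd209f were not counted. Lyve1 and Pf4 are also in the lymphatic and platelet lists, so this median does not describe resident macrophages alone. Selenop, the selenium carrier and the most abundant of these, had 238, 138 and 130 CPM in high glucose and 255, 173 and 291 CPM in control (log2 difference -0.53, SE 0.229, edgeR adjusted p = 0.993). F13a1 (coagulation factor XIII, chain A) was higher in all 3 pairs, at 20.3, 3.81 and 42.1 CPM in high glucose and 17.8, 2.23 and 13.5 CPM in control (log2 difference 0.87, SE 0.303, edgeR adjusted p = 0.797). Among 12 myeloid transcription factors, 6 were lower in all 3 pairs and 0 were called, with a median of -0.37. Spi1 had 37.9, 36.9 and 15.9 CPM in high glucose and 49.8, 42.8 and 41.3 CPM in control, a log2 difference of -0.66 (SE 0.252, edgeR adjusted p = 0.888). Nr1h3 (the sterol receptor LXR alpha), with the smallest p of this list, had -0.73 (SE 0.199, edgeR adjusted p = 0.498). Cebpb, the most abundant, had 0.18 (edgeR adjusted p = 0.9996).

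Of the lists of other blood cells, those of erythroid cells, neutrophils, lymphocytes and mast cells had medians further below 0 than that of the 10 genes, those of dendritic cells and monocytes were negative but closer to 0, and that of platelets was 0.02. Erythroid genes summed to 87.0 to 605 CPM in high glucose and 410 to 1627 CPM in control. Of 9 tested, 8 were lower in all 3 pairs, against 11.3% of all genes tested. The erythroid median log2 difference was -3.66, and 1 gene was called, Car1 (edgeR adjusted p = 0.000793). Hbb (beta-globin) was the most abundant of them. Neutrophil genes summed to 2.90 to 8.55 CPM in high glucose and 8.29 to 182 CPM in control. Of 6 tested, 3 were lower in all 3 pairs, the median was -3.32, and 1 was called, the defensin Np4 (edgeR adjusted p = 0.000246). S100a9, a calcium-binding protein of neutrophils and monocytes, was the most abundant. The lymphocyte list summed to 12.0 to 16.8 CPM in high glucose and 19.7 to 66.9 CPM in control, led by Cd4, which rat macrophages also carry, at 5.39 to 9.62 CPM in high glucose and 5.63 to 22.9 CPM in control. Lck, a T cell kinase, had the smallest p of that list (log2 difference -0.95, edgeR adjusted p = 0.864). The T and B cell genes Cd3d, Cd3e and Ms4a1 had 0 to 8 counts in each high glucose library, and in control 12 to 95 counts in pair 1 and 0 to 5 in pairs 2 and 3. Dendritic cell and class II genes summed to 98.3 to 179 CPM in high glucose and 132 to 226 CPM in control, with Cd74 most abundant and RT1-Ba at the smallest p (log2 difference -2.64, edgeR adjusted p = 0.203). Their sum was lower in high glucose in pairs 1 and 2 but higher in pair 3, at 179 against 132 CPM. Lymphocyte and dendritic medians were -1.52 over 9 and -0.57 over 10 tested genes, with 5 and 3 lower in all 3 pairs and 0 called in each. In pairs 1 to 3 the median log2 difference was -0.51, -0.18 and -1.11 for the 10 macrophage genes. It was -5.35, -1.26 and -3.50 for erythroid, -4.88, -0.11 and -3.24 for neutrophil, -1.34, -0.92 and -0.37 for lymphocyte and -0.93, -0.21 and -0.67 for dendritic cell genes. Erythroid, neutrophil and dendritic cell medians were, like that of the macrophage genes, closest to 0 in pair 2, and the lymphocyte median in pair 3. In pair 2 the summed neutrophil level was 8.55 CPM in high glucose and 8.29 CPM in control, while the summed level of the 10 genes was 761 and 932 CPM. The part of other blood cells in the macrophage differences was not tested.

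**Figure D4:**
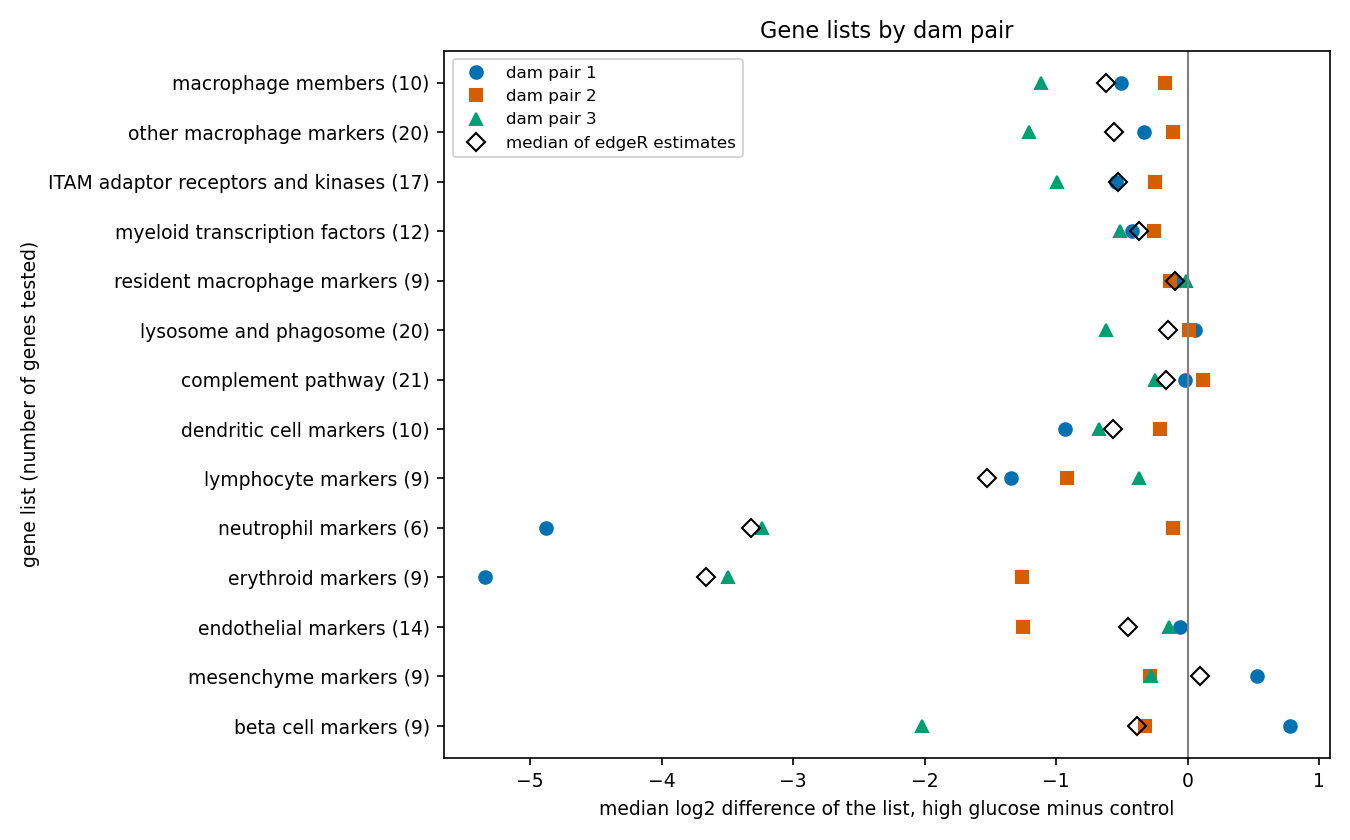
Median log2 difference, high glucose minus control (horizontal axis), of 14 gene lists (rows, with the number of genes tested) in each dam pair and over the edgeR estimates. The 10 macrophage genes, other macrophage markers and ITAM genes are most negative in pair 3, erythroid and neutrophil markers in pair 1, and endothelial markers in pair 2.

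Monocyte, mast cell, platelet and tissue markers had medians on both sides of 0. For comparison with their counts, 11.3% of all genes tested were lower and 11.7% higher in all 3 pairs. The monocyte list (median -0.38 over 8 tested, 1 lower and 2 higher in all 3 pairs) summed to 3347 to 4738 CPM in high glucose and 2596 to 3324 CPM in control. That sum was set by Fn1 and Vcan, matrix genes that mesenchyme also makes. Vcan had the smallest p of this list (log2 difference 0.76, edgeR adjusted p = 0.553). Mast cell genes summed to 38.5 to 108 CPM in high glucose and 49.4 to 102 CPM in control (median -1.02 over 6, 3 lower and 1 higher in all 3 pairs), mostly from Kit, with Mcpt2 at the smallest p (log2 difference -1.37, edgeR adjusted p = 0.321). Of the platelet list only Itgb3 and Pf4 were tested, which other cells also make, at 0.15 and -0.10. The endothelial list summed to 503 to 1073 CPM in high glucose and 1088 to 1297 CPM in control (median -0.45 over 14, 4 lower in all 3 pairs), with Cdh5 most abundant and Cldn5 at the smallest p (log2 difference -0.87, edgeR adjusted p = 0.278). The lymphatic and sinusoidal list, Mrc1 included, had a median of -0.09 over 8 (3 lower and 1 higher in all 3 pairs), with Pdpn most abundant and Ccl21 at the smallest p (log2 difference -1.42, edgeR adjusted p = 0.109). Mesenchyme genes, led by Col3a1, had a median of 0.09 over 9, 1 of them higher in all 3 pairs, and Lum had the smallest p (log2 difference -0.42, edgeR adjusted p = 0.9996). Beta cell genes, led by Ins1, had a median of -0.39 over 9 and pair medians of 0.77, -0.33 and -2.02, with none of one sign in all pairs. None of these genes was called. Pair 3 was the pair in which both the beta cell genes and the 10 macrophage genes had their most negative medians, and whether the 2 are linked was not tested.

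None of the 10 genes most like the macrophage genes across libraries belonged to the gene lists described above. Likeness was the Pearson correlation, over 6 libraries, of log2 CPM with the mean standardised profile of the 10. Among 11762 genes with a mean count of at least 20, the highest values were those of Kcnn4 (0.993), Cbln2 (0.989), Hcls1 (0.985), Cd300a (0.985), Gosr2 (0.984), Serpinb8 (0.983), Apobec1 (0.982), Stom (0.981), Hpgds (0.979) and Creg1 (0.978). Kcnn4 is a calcium-activated potassium channel, Hcls1 an actin regulator of blood cells, Cd300a an inhibitory receptor of leukocytes and Hpgds the haematopoietic prostaglandin D synthase. The rest of the 10 were not sorted by cell type, so the 10 are not shown to be a blood cell set. Cbln2 and Serpinb8 were low, at 0.436 to 1.77 CPM and 0.0311 to 2.46 CPM. Hcls1 had 43.7, 37.7 and 21.0 CPM in high glucose and 64.2, 41.1 and 43.9 CPM in control. With the mean of each dam subtracted, 0 of these 10 stayed among the first 10. By single genes, C1qc, Tnfaip8l2 and Fam212b were most like C1qa (0.985, 0.98 and 0.979), and Lyz2, Mmp8 and Slc16a10 most like Csf1r (0.996, 0.993 and 0.991). Ccl9, Sfrp5 and Spi1 were most like Tyrobp (0.988, 0.984 and 0.981). For Mrc1 these were Fbxo3, Tgfbr1 and Ppm1l (0.992, 0.991 and 0.989). Mrc1 and Cd163 correlated with each other at 0.837, and Mrc1 with the other 9 genes at a median of 0.05 (Pearson, n = 6 libraries, as a description).

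How far the 6 genes can be separated from the spread depended on pair 3. Without pair 3 the unadjusted edgeR p was below 0.05 for 1 gene that was lower (C1qc) and 1 that was higher (Mrc1), against 6 lower with all pairs. Over all genes tested, in both directions, the share was 4.56% without pair 3 and 4.82% with all pairs. Without pair 1 it was below 0.05 for 8 of the 10 (6.18% of all genes) and without pair 2 for 6 (5.96%), all lower. With no dam block it was below 0.05 for 2 of the 10, both lower (1.56% of all genes). Genes lower in both remaining pairs, which by definition include those lower in all 3, numbered 8 of 10 without pair 1 (24.6% of all genes tested), with Cd68 and Fcer1g added. They numbered 7 without pair 2 (26.4%), with Cd163 added, and 6 without pair 3 (21.0%). The fit of Cd68 was -0.81 without pair 1 and -0.05 without pair 3, and that of Fcer1g was -0.77 and -0.25. No label says more about the separate litters than the dam. With dam as a block, the p-values weigh the difference within pairs against its variation over these 3 pairs, moderated across all genes tested.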

How the data were processed

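Islet RNA was sequenced in 6 libraries, 3 labelled high glucose and 3 labelled control. The files the authors deposited hold raw counts (read pairs assigned to each gene) from featureCounts 1.5.1, taken on the reverse strand at a mapping quality of at least 10 with the UCSC refGene annotation of rn6, per the file headers. Alignment used STAR 2.5, per the submitters' processing notes, which also name mm10 and edgeR 3.12.1. Libraries were grouped by treatment label and paired by the stem of the title, since the design text calls the right horn the paired control of the left. Deviations of same-dam libraries from their group means correlated at 0.474, 0.621 and 0.4135 across genes. Replicates differed beyond counting noise (chi-square per degree of freedom at least 190.8).

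The treatment effect was estimated for every gene in a model with dam as a block (edgeR 4.0.16 under R 4.3.3; TMM scaling, filterByExpr, robust quasi-likelihood F-test), with Benjamini-Hochberg adjustment over 12276 genes. SEs were derived from the F statistic. The procedure was tested on simulated data. Alternatives were DESeq2 1.42.0, voom in limma 3.58.1, other scalings and filters, no dam block and leaving out a pair. Lists held 272 entries, 254 of them matched by symbol and 1 through a RefSeq (GRCr8) synonym. The members, lists and tests were chosen with earlier results of these data known. The text names all 10 members, the most abundant and smallest-p gene of each list, genes past the threshold and the genes most like the members, except for a gene that is not reported here. Genes outside this rule, such as Cd3d, Cd3e, Ms4a1, Clec10a, Syk, Il34, C3 and Hmox1, were added for their known roles or after their values were seen. Protein sequences were not used here.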

Additional observations from a re-analysis of the deposited data

How the results depend on the processing

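None of the 10 macrophage genes was called under any of the 11 alternatives run (adjusted p of at least 0.0929, Mrc1 without pair 3), and 9 of them kept their sign in all of these. The exception was Cd163, at 0.04 without replicate 1 and 0.25 without replicate 3. Leaving out 1 pair gave log2 differences of -0.82 to -0.44 for C1qa, -0.87 to -0.43 for C1qb, -0.97 to -0.48 for C1qc, -0.99 to -0.35 for Csf1r, -1.18 to -0.58 for Aif1, -0.81 to -0.33 for Tyrobp, -0.77 to -0.25 for Fcer1g, -0.81 to -0.05 for Cd68, 0.01 to 0.92 for Mrc1 and -0.53 to 0.25 for Cd163. The member counts by unadjusted p, by pairs left after removal of 1 pair and on the TPM scale were chosen after seeing the data, as were the TPM ratios. The number of the 10 with an unadjusted p below 0.05 was 2 with no replicate block (1.56% of all genes tested). With 1 pair left out it was 2 to 8 (4.56% to 6.18% of all genes). Genes called over the whole table numbered 2 in the main analysis, 106 with DESeq2, 18 with no filter, 5 where the mean count reached 50, 4 with upper-quartile factors, 4 with voom, 0 with no replicate block (1.56% of genes at an unadjusted p below 0.05) and 18 to 55 without 1 pair. DESeq2 called 7 erythroid, 3 dendritic cell and 1 gene each of the other macrophage, myeloid factor, complement, monocyte, mast cell, endothelial and lymphatic lists. With no filter it was 2 neutrophil and 1 lymphatic gene, and with no replicate block 0 neutrophil and 0 erythroid genes. Without 1 pair the called genes numbered 1 to 2 for neutrophil, 1 to 4 for erythroid, 0 to 2 for dendritic cell and 0 to 1 for lymphatic, CSF1 axis and beta cell lists. List medians moved to -0.29 for mast cell genes where the mean count reached 50 and to -1.52 for platelet genes with no filter. Without 1 pair they ranged from -0.40 to -0.0318 for resident macrophage, -0.96 to -0.27 for dendritic cell, -1.99 to -0.72 for lymphocyte, -1.11 to -0.67 for mast cell and -0.59 to 0.18 for lymphatic genes. They also changed sign for beta cell (-0.88 to 0.25), lysosomal (-0.28 to 0.09) and mesenchyme genes (-0.19 to 0.21). They ranged from -0.97 to -0.27 for other macrophage, -0.63 to -0.39 for ITAM, -0.43 to -0.33 for myeloid factor, -0.26 to -0.02 for CSF1 axis, -0.20 to -0.03 for complement, -0.61 to -0.11 for haem and iron, 0.10 to 0.27 for mannose receptor, -0.58 to -0.12 for monocyte, -3.45 to -1.95 for neutrophil, -4.99 to -2.42 for erythroid, -0.69 to -0.14 for endothelial and 0.00 to 0.05 for platelet genes. The causes were not tested.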
